A study of Mus musculus with 15 samples.

Results

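The genes that make cholesterol and fatty acids, with the proteins that sense and carry sterols, were followed in mouse dental mesenchymal cells (mDMCs) during the first 48 h of culture. The list gives the genes by name, without a threshold on their values, and it was drawn up with earlier results of these data known. Of 34 genes listed, 33 had a row among the 12089 transcripts of the expression table. They were 18 of 18 sterol synthesis enzymes, 5 of 6 genes of sterol sensing and transport and 10 of 10 fatty acid synthesis enzymes. Scap was not analysed here. All 33 passed the filter on low values.

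mDMCs came from mandibular first molar germs of ICR mouse embryos at E14.5. Dispase was used to free the mesenchyme from the epithelium, and trypsin to disperse it. RNA-seq was analysed in 3 libraries of freshly isolated mDMCs (0 h), in 2 libraries of mDMCs cultured for 12 h, in 3 libraries each for 24 h, 36 h and 48 h, and in 1 library of dental mesenchymal tissue. The culture medium was DMEM with fetal bovine serum (FBS), and no group was cultured without it. The labels do not say whether replicates came from separate litters or cultures, so the p-values measure the spread between these libraries, which may be technical.

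Cholesterol is built from acetyl-CoA. The mevalonate pathway leads to squalene, and a second series of enzymes turns squalene into lanosterol and then into cholesterol. Most of these genes are targets of the transcription factor SREBP-2, made by Srebf2. When membranes hold little cholesterol, Scap escorts the SREBP precursor from the endoplasmic reticulum to the Golgi, where it is cut into its active form. When cholesterol is plentiful, Insig1 and Insig2 hold Scap and SREBP back. SREBP-1c, made by Srebf1, acts mainly on fatty acid genes. Cells in culture can also take up cholesterol and fatty acids from serum lipoproteins.

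The promoters show what these genes share in sequence. RefSeq promoters of GRCm38.p6, each 250 bases before to 50 after a gene's start, were found for 26 of the 33 genes and for 9271 tested genes in all. The start is that of RefSeq and need not be the start of the transcript in the table. A CCAAT box (CCAAT, on either strand), which is bound by NF-Y, stood in 14 of 15 sterol synthesis enzyme promoters, or 93.3%, and in 43.7% of all 9271. Acat2 was the one without it. All 4 promoters of sterol sensing and transport and 4 of 7 of fatty acid enzymes (57.1%) held it. A GC box (GGGCGG, on either strand) stood in 14 of 15, 4 of 4 and 3 of 7, beside 70.8% of all. The sterol regulatory element searched (TCACNCCAC, on either strand) stood in the promoter of Hmgcs1 and of no other gene of the 26, beside 1.41% of all. These are matches of letters, described without a test.

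Hmgcs1, which encodes the cytosolic HMG-CoA synthase, is shown because it held the sterol regulatory element, 137 bases before the start. The other promoters were picked once the counts were known, from the sterol enzymes with the largest changes, for their CCAAT boxes. In all 6, capitals mark CCAAT or its reverse complement ATTGG, and in Hmgcs1 also the sterol regulatory element. The sequences of Hmgcs1 (chr13:119690101-119690400, plus strand) and Nsdhl (chrX:72918271-72918570, plus strand) are whole promoters and hold 4 boxes each. The other 4 are windows of 31 bases around 1 box in Hsd17b7 (chr1:169969200-169969230, minus strand), Msmo1 (chr8:64733616-64733646, minus strand), Idi1 (chr13:8885579-8885609, plus strand) and Ebp (chrX:8193550-8193580, minus strand). Each is written 5′ to 3′ on the strand of its gene.
Hmgcs1: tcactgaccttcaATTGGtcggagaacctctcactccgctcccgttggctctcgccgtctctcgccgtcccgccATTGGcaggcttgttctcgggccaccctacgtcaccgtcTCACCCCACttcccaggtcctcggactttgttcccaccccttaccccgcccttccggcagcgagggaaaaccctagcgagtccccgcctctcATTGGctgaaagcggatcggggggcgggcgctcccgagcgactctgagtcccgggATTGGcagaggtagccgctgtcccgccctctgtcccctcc
Nsdhl: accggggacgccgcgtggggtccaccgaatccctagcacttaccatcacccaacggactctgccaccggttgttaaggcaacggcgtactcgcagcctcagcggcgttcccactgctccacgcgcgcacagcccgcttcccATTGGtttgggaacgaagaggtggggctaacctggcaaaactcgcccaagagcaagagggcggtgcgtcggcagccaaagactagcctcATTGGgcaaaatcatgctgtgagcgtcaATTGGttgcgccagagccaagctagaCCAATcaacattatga
Hsd17b7: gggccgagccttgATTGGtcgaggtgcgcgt
Msmo1: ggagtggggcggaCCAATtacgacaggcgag
Idi1: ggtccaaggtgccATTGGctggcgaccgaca
Ebp: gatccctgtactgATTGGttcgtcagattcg

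Expression is given as the deposited score, a whole number on a normalized scale that all 15 libraries share (median 721, maximum 127101). The scores are not per length, so they are compared between libraries and not between genes. Changes were tested with limma on log2(score + 1) over 12079 transcripts, and a gene was called higher or lower when its two-sided Benjamini-Hochberg adjusted p over all of them was below 0.05. All 13 markers of dental mesenchyme looked for had a row. Their summed score was 261641 to 284859 at 0 h, 282010 and 360332 at 12 h, 193147 to 222060 at 24 h, 212509 to 276100 at 36 h and 180479 to 186363 at 48 h. At 12 h 7 of the 13 were lower and 2 higher (median log2 change -0.26), beside 28.3% of all transcripts lower and 29.9% higher. The sum at 12 h thus does not stand for each marker. At 48 h 8 of the 13 were lower and 1 higher, beside 34.0% of all transcripts lower and 37.1% higher. The summed score of 6 endothelial markers went from 7473 to 8758 at 0 h to between 394 and 851 in culture, and that of 6 red cell markers from 97654 to 150514 to between 51 and 757. In bulk RNA, fewer cells of a type and less RNA per cell cannot be told apart. Of 6 adipocyte markers only Pparg had a row, with scores of 15 to 22 at 0 h and 134 and 140 at 12 h. The summed score of 7 epithelial markers was 13358 in replicate 1 at 0 h and 1450 and 1771 in the other two, 2289 and 2683 at 12 h, and 357 to 1205 at 48 h, when 4 of the 7 were lower and none higher (median log2 change -2.03). Of 5 Schwann and neural markers only Tubb3 had a row. It scored 77 to 258 at 0 h, 951 and 1034 at 12 h, 712 to 1673 at 24 h and 269 to 293 at 36 h, with log2 changes of 2.81 at 12 h and -1.95 between 24 h and 36 h, both called. Of 4 muscle markers 3 had a row, with a summed score of 117 to 641 at 0 h, 819 and 870 at 12 h and 481 to 2340 at 36 h, and 1 was higher at 12 h and 2 at 36 h. The part of these other cells in the changes below was not tested.

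Sterol synthesis enzymes rose together within 12 h and then fell back, past the level of freshly isolated mDMCs for several of them. At 12 h against 0 h, 16 of 18 were higher and none was lower, with a median log2 change of 1.17. Of all transcripts tested, 29.9% were higher and 28.3% lower in this comparison, and the median was 0.02. All 18 had a positive log2 change, beside 6187 of all 12079 transcripts. Of the 18, 13 were called higher with a change of more than 2-fold, beside 1462 of all 12079. Acat2 and Tm7sf2 were not called, at 0.17 and 0.38. With any 1 library left out, 15 or 16 were higher.

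At 24 h, 14 of the 18 enzymes were still higher than at 0 h, with a median log2 change of 0.82, beside 35.0% of all transcripts higher and 31.8% lower. At 36 h, 8 were higher and 2 lower (median 0.26), beside 36.0% and 34.0%. At 48 h, 3 were higher and 9 lower (median -0.29), beside 37.1% and 34.0%. These 4 comparisons share the libraries at 0 h. The share of sterol enzymes called higher was above the background at 12 h and 24 h, nearer to it at 36 h and below it at 48 h, when the share called lower was above it.

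The time of the highest mean was 12 h for 15 of the 18 enzymes, or 83.3%, and for 17.1% of all transcripts. The lowest mean was at 48 h for 13 of them, or 72.2%, beside 19.8% of all, and at 0 h for the other 5. The mean level of the 18 enzymes, as log2 relative to the 0 h mean, was -0.13, -0.02 and 0.15 in the libraries at 0 h. It was 1.03 and 1.21 at 12 h, 1.04, 0.75 and 0.69 at 24 h, 0.20, 0.23 and 0.42 at 36 h, then -0.51, -0.41 and -0.05 at 48 h. All libraries at 12 h and 24 h lay above all others, and replicate 3 at 48 h lay among those at 0 h.

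**Figure D1:**
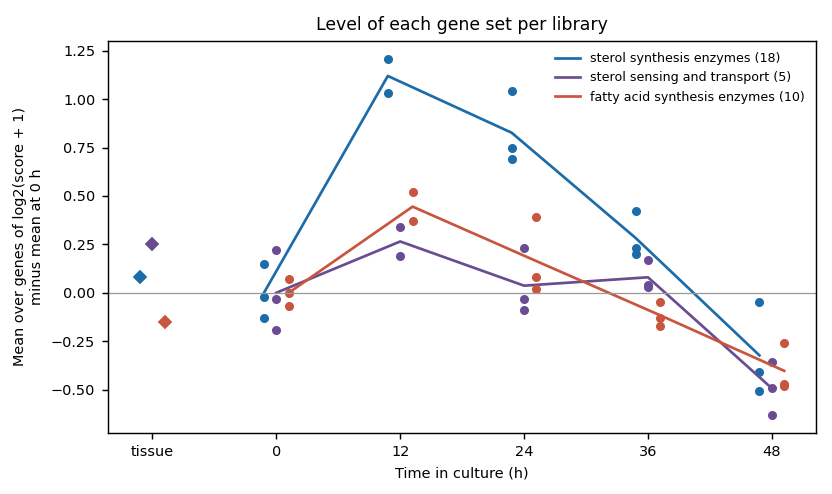
Mean level of each gene set in every library, as log2 relative to the mean of the 0 h libraries, against culture time, with dental mesenchymal tissue at the side. Sterol synthesis enzymes stood at 1.03 and 1.21 at 12 h and between -0.51 and -0.05 at 48 h, and the other sets moved less at 12 h.

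Within culture, the fall was spread over the intervals. Between 12 h and 24 h, 15 of the 18 log2 changes were negative (median -0.31), beside 5879 of all 12079 transcripts. Only Hmgcs1 was called, as lower, beside 4.59% of all transcripts higher and 3.67% lower. The count was 4 with the replicate number as a block in the fit. It was 0 without either library at 12 h or without replicate 2 or 3 at 24 h, 2 without replicate 1 at 24 h, and 3 without replicate 3 at 0 h or replicate 1 or 3 at 48 h. Between 24 h and 36 h, 9 of the 18 were lower and none was higher (median -0.52), beside 10.0% of all transcripts higher and 9.64% lower. The 9 were Acat2, Hmgcs1, Mvk, Mvd, Idi1, Fdps, Fdft1, Lss and Hsd17b7. The count was 4 without replicate 1 or without replicate 2 at 36 h, and 5 without replicate 3 at 24 h.

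Between 36 h and 48 h limma called none of the 33 genes, and 0.00% of all transcripts were called higher and 0.0248% lower. The 33 log2 changes were all negative, beside 5728 of all 12079 transcripts. Of the 33, 28 had an unadjusted p below 0.05, beside 13.4% of all transcripts in either direction. The 33 genes come from the same libraries, so their signs and p-values are not separate observations. The lowest adjusted p among the 33 was 0.108.

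The comparison of 48 h with 12 h was added after the values had been seen, and it shares libraries with those above. In it 17 of 18 sterol enzymes were lower, with a median log2 change of -1.43, beside 21.2% of all transcripts higher and 21.0% lower. The exception was Ebp. Of the 10 fatty acid enzymes 8 were lower (median -0.93), and of the 5 genes of sensing and transport 3 were lower and 1 higher.

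**Figure D2:**
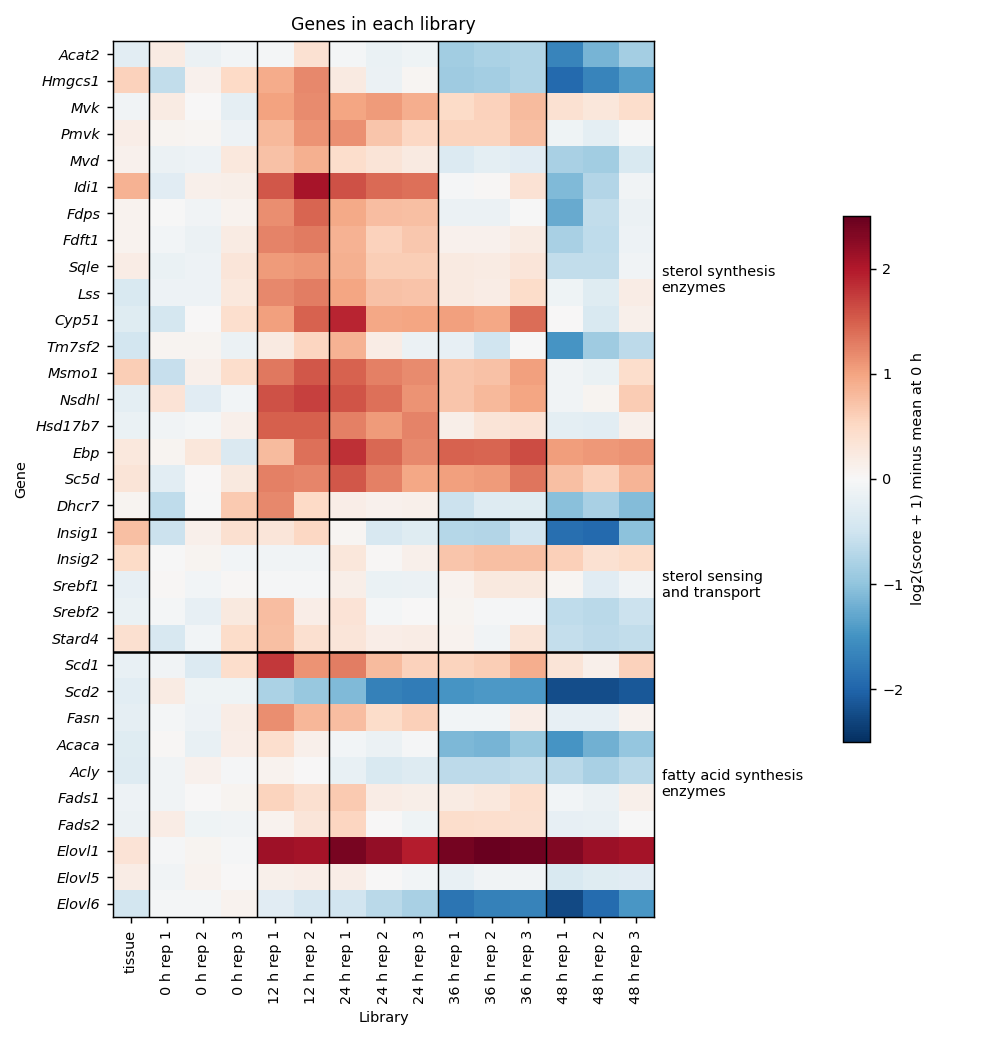
Log2 score of each of the 33 genes in every library relative to its 0 h mean, with rows ordered by role, the tissue as first column and the other columns by culture time (red, above the 0 h mean and blue, below it). Most sterol synthesis enzymes were highest at 12 h, the time of the highest mean for 15 of 18, and 13 of 18 were lowest at 48 h.

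The mevalonate pathway to squalene and the steps after squalene were set side by side after the values had been seen. At 12 h both rose, with 7 of the 8 enzymes up to squalene higher (median 1.08) and 9 of the 10 later ones (median 1.24). Of all transcripts 29.9% were higher and 28.3% lower at 12 h. At 24 h the medians were 0.74 and 1.22, and at 36 h 0.01 and 0.55. At 48 h 6 of the 8 early enzymes were lower than at 0 h, 1 was higher and the median was -0.66, whereas 3 of the 10 later ones were lower, 2 higher and the median was -0.08. Of all transcripts 37.1% were higher and 34.0% lower at 48 h, so the count of later enzymes called lower was no higher than the background. The difference between the groups of enzymes was not tested.

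Among the mevalonate enzymes, Hmgcs1 joins acetoacetyl-CoA with acetyl-CoA (chr13:119690446-119708082, plus strand, 10 exons). Its score was 5983, 9804 and 12971 at 0 h, 17385 and 20902 at 12 h, 10718, 8295 and 9415 at 24 h, 4930, 5039 and 5385 at 36 h, then 2385, 2896 and 3517 at 48 h. Both libraries at 12 h lay above all at 0 h, and all at 36 h and 48 h lay below them. Hmgcs1 rose at 12 h by a log2 change of 1.06 (SE 0.25, adjusted p = 0.00304). It was not called at 24 h (0.05, adjusted p = 0.868), and fell by 1.66 on the log2 scale at 48 h (SE 0.23, adjusted p = 2.47e-05). From 12 h to 48 h the log2 change was -2.72 (adjusted p = 7.02e-06), the largest fall among the 18 sterol enzymes in this comparison. The call between 12 h and 24 h (adjusted p = 0.0281) was lost without either library at 12 h and without replicate 2 or 3 at 24 h. That between 24 h and 36 h (adjusted p = 0.0183) was lost without replicate 3 at 24 h and without replicate 1 or 2 at 36 h.

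Idi1, the isomerase that makes dimethylallyl diphosphate (chr13:8885501-8892451, plus strand, 5 exons), had the largest rise of the sterol enzymes at 12 h. It scored 1819, 2421 and 2467 at 0 h, 6497 and 9215 at 12 h, 6633, 5908 and 5785 at 24 h, 2172, 2264 and 2850 at 36 h, then 1035, 1334 and 2088 at 48 h. The libraries at 12 h and 24 h did not overlap with those at 0 h, and those at 36 h and 48 h did. The log2 change was 1.80 at 12 h (SE 0.25, adjusted p = 4.93e-05) and -1.34 between 24 h and 36 h (adjusted p = 0.00231). At 48 h against 0 h it was -0.64 (adjusted p = 0.0208), and this call was lost without replicate 2 or 3 at 0 h or without replicate 1 or 2 at 48 h, with adjusted p up to 0.105.

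Fdps makes farnesyl diphosphate, the branch point to sterols and to protein prenylation (chr3:89093588-89101959, minus strand, 10 exons). Its score was 3914, 3675 and 4193 at 0 h, 8752 and 10727 at 12 h, 7604, 6704 and 6575 at 24 h, 3537, 3558 and 3869 at 36 h, then 1628, 2548 and 3520 at 48 h. The 12 h and 24 h libraries were all above 0 h, and the 48 h libraries all below. By the fit, Fdps changed by 1.30 (log2) at 12 h (SE 0.23, adjusted p = 0.00031) and -0.68 at 48 h (SE 0.20, adjusted p = 0.00878). Fdps is uncertain because 82.0% of the 50-base words of its transcript also occurred in other genes. The share was 45.9% for Acat2, 21.3% for Idi1 and 14.1% for Fdft1, and under 5% for the other 29.

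The other mevalonate enzymes differed in how far they rose and where they ended. The kinases Mvk and Pmvk rose at 12 h by log2 changes of 1.09 and 0.97, the decarboxylase Mvd by 0.81, and Fdft1, which makes squalene, by 1.27. At 48 h Mvk was still higher than at 0 h (0.37, adjusted p = 0.00993), Pmvk was not called (-0.12), and Mvd (-0.68) and Fdft1 (-0.52) were lower. Acat2, the cytosolic thiolase of the first step, was not called at 12 h or 24 h and was lower at 36 h (-0.80) and 48 h (-1.22).

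After squalene, Nsdhl removes carboxyl groups from the sterol ring system (chrX:72918557-72958514, plus strand, 8 exons). It scored 485, 315 and 367 at 0 h, 1161 and 1262 at 12 h, 1136, 993 and 833 at 24 h, 620, 674 and 758 at 36 h, then 358, 401 and 597 at 48 h. Every library from 12 h to 36 h lay above those at 0 h, and those at 48 h overlapped with them. Its log2 change was 1.66 at 12 h (SE 0.22, adjusted p = 3.39e-05), 0.83 at 36 h (adjusted p = 0.00205) and 0.20 at 48 h (SE 0.20, adjusted p = 0.367).

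Hsd17b7 reduces a sterol ketone in the same series (chr1:169949535-169969241, minus strand, 9 exons). It scored 802, 833 and 942 at 0 h, 2428 in both libraries at 12 h, 2042, 1796 and 2016 at 24 h, 952, 1077 and 1104 at 36 h, then 719, 715 and 937 at 48 h. No library at 12 h or 24 h came near those at 0 h. Hsd17b7 rose by a log2 change of 1.5 at 12 h (SE 0.12, adjusted p = 6.33e-07), the lowest adjusted p of the sterol enzymes there, with equal scores in both 12 h libraries, and fell by 0.90 on the log2 scale between 24 h and 36 h (adjusted p = 0.000496). Its call at 36 h against 0 h (0.28, adjusted p = 0.0376) was lost without replicate 1 or 2 at 0 h or replicate 2 or 3 at 36 h.

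Msmo1 oxidizes the methyl groups of lanosterol-derived sterols (chr8:64718139-64733792, minus strand, 6 exons). Its score was 1591, 2591 and 3229 at 0 h, 5882 and 6910 at 12 h, 6617, 5706 and 5413 at 24 h, 3819, 3947 and 4794 at 36 h, then 2226, 2105 and 3210 at 48 h. Libraries from 12 h to 36 h lay above those at 0 h and those at 48 h among them. Msmo1 rose at 12 h by a log2 change of 1.43 (SE 0.25, adjusted p = 0.000342), with 0.06 at 48 h (SE 0.22, adjusted p = 0.826).

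Ebp, which shifts a double bond in the sterol ring system (chrX:8185329-8193512, minus strand, 5 exons), stayed up. It scored 428, 497 and 315 at 0 h, 704 and 1058 at 12 h, 1435, 1106 and 939 at 24 h, 1129, 1116 and 1261 at 36 h, then 844, 858 and 888 at 48 h. All libraries in culture lay above all at 0 h. The log2 change against 0 h was 1.09 at 12 h (SE 0.21, adjusted p = 0.000742), 1.52 at 36 h (SE 0.19, adjusted p = 1.12e-05) and 1.09 at 48 h (SE 0.19, adjusted p = 0.000198). Sc5d, the desaturase that acts next, was also higher at 48 h (0.73, adjusted p = 0.000905).

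**Figure D3:**
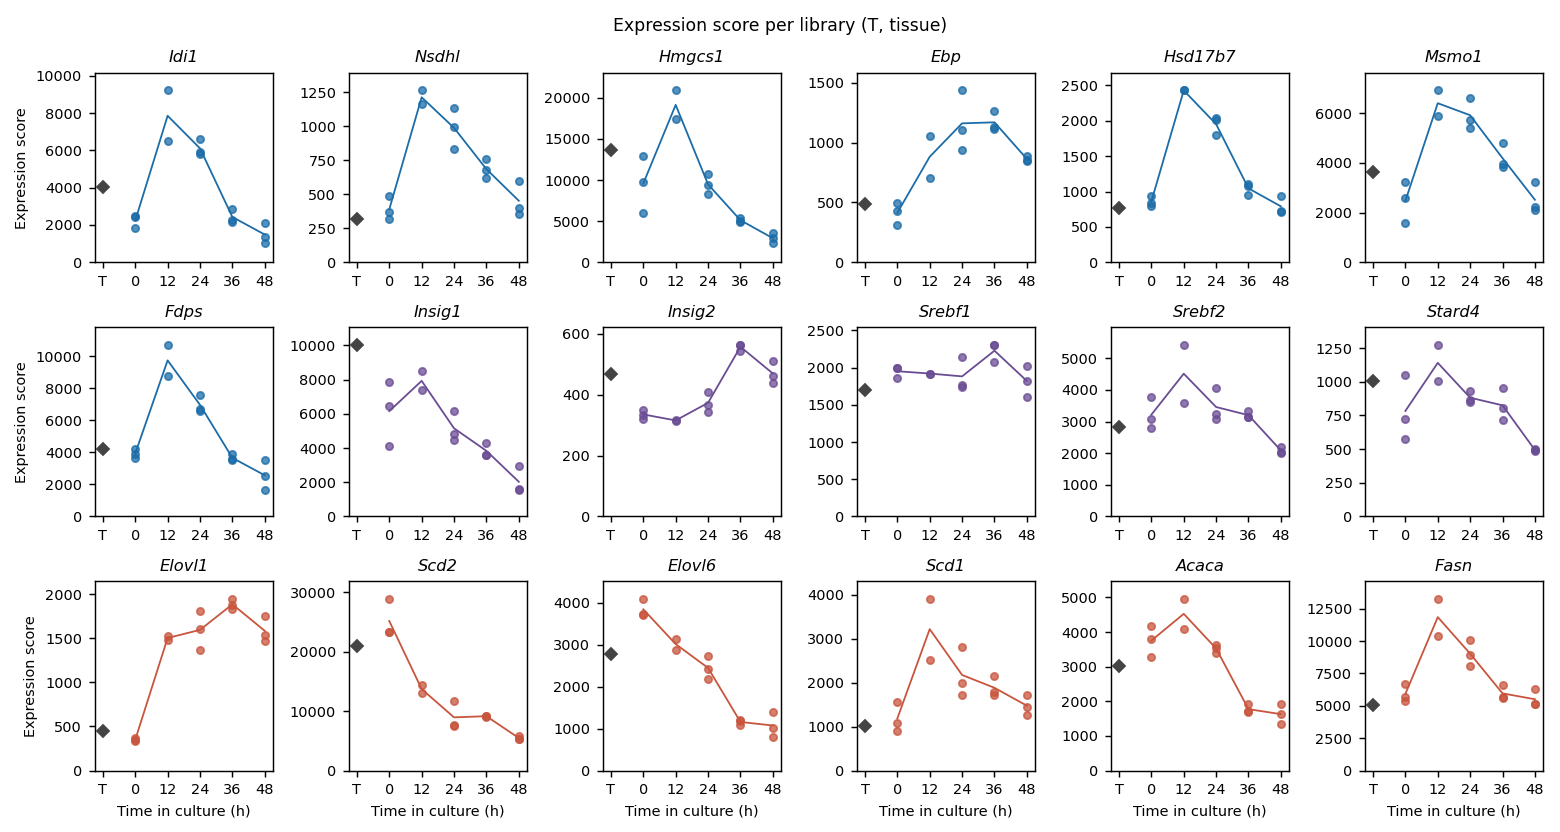
Deposited score of the genes given in every library, with 1 point per library and a line through the means, against culture time, with the tissue (T) at the side and a linear axis from 0 for each gene. Idi1 reached 6497 and 9215 at 12 h from at most 2467 at 0 h, Scd2 was lower than at 0 h in every cultured library and Elovl1 higher.

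Of the remaining enzymes after squalene, the epoxidase Sqle rose at 12 h by a log2 change of 1.08, Lss, which closes the rings of lanosterol, by 1.24, the lanosterol demethylase Cyp51 by 1.25, Sc5d by 1.24 and Dhcr7, the last reductase of the pathway, by 0.86. At 48 h Sqle (-0.44), Dhcr7 (-0.98) and the sterol reductase Tm7sf2 (-1.01) were lower than at 0 h, and Lss (-0.07) and Cyp51 (-0.08) were not called. The row of Sqle is named by a transcript annotated as a retained intron, and that of Lss by a processed transcript. How the table was reduced to 1 transcript per gene is not given in the sources used here.

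Libraries of 1 time point ranked alike across these enzymes. Replicate 3 was the highest of its group in 17 of the 18 enzymes at 36 h and in 17 at 48 h, and replicate 1 in 17 at 24 h. At 0 h, replicate 1, the library with the highest epithelial sum, was the lowest in 9. The changes of the 18 enzymes are thus not separate observations.

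Among the genes of sterol sensing, Insig1, itself a target of SREBP, had its highest mean at 12 h but was not called there. Its score (chr5:28071363-28078662, plus strand, 5 exons) was 4123, 6473 and 7867 at 0 h, 7369 and 8482 at 12 h, 6169, 4494 and 4791 at 24 h, 3620, 3595 and 4290 at 36 h, then 1617, 1542 and 2925 at 48 h. The 12 h libraries overlapped with 0 h, where replicate 1 was low, and the 48 h libraries were all below. The log2 change was 0.41 at 12 h (SE 0.28, adjusted p = 0.233) and -1.62 at 48 h (SE 0.25, adjusted p = 8.42e-05). The call at 36 h (-0.64, adjusted p = 0.0392) was lost without replicate 2 or 3 at 0 h or replicate 1 or 2 at 36 h.

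Insig2, the paralogue that holds back the same complex, moved the other way late in culture. It scored (chr1:121304353-121328024, minus strand, 6 exons) 335, 350 and 321 at 0 h, 317 and 314 at 12 h, 410, 343 and 367 at 24 h, 544, 564 and 565 at 36 h, then 510, 438 and 462 at 48 h. All libraries at 36 h and 48 h lay above all at 0 h and 12 h. Insig2 rose by a log2 change of 0.73 at 36 h (SE 0.09, adjusted p = 1.54e-05) and 0.48 at 48 h (SE 0.09, adjusted p = 0.000499). Within a library, the log2 ratio of the Insig1 to the Insig2 score was 3.62 to 4.61 at 0 h, 4.53 and 4.75 at 12 h, 2.67 to 2.92 at 36 h and 1.66 to 2.66 at 48 h. These ratios are differences of unlike transcripts and serve only to compare libraries.

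The transcription factor gene Srebf2 (chr15:82147181-82205379, plus strand, 19 exons) scored 3083, 2784 and 3782 at 0 h, 5434 and 3591 at 12 h, 4066, 3083 and 3227 at 24 h, 3324, 3139 and 3139 at 36 h, then 2048, 2007 and 2202 at 48 h. Only replicate 1 at 12 h stood above the range of 0 h there, and all 48 h libraries lay below it. The log2 change was 0.47 at 12 h (SE 0.17, adjusted p = 0.0308) and -0.61 at 48 h (SE 0.15, adjusted p = 0.00285). Without replicate 1 at 12 h the first was 0.17 (adjusted p = 0.436), and it was also lost without replicate 1 (adjusted p = 0.0683) or replicate 2 at 0 h (adjusted p = 0.106).

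Srebf1 (chr11:60199089-60207188, minus strand, 18 exons) scored 2001, 1861 and 1995 at 0 h, 1921 in both libraries at 12 h, 2150, 1737 and 1762 at 24 h, 2072, 2303 and 2311 at 36 h, then 2026, 1612 and 1827 at 48 h. It was not called in any comparison. The fitted log2 changes against 0 h were between -0.11 (48 h, SE 0.10) and 0.19 (36 h, SE 0.10). The row does not separate the SREBP-1a and SREBP-1c forms.

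Stard4, a carrier of cholesterol between membranes, scored 575, 725 and 1051 at 0 h, 1277 and 1005 at 12 h, 935, 849 and 862 at 24 h, 805, 718 and 953 at 36 h, then 503, 483 and 495 at 48 h. The libraries at 12 h overlapped with 0 h and those at 48 h lay below. The log2 change was 0.58 at 12 h (SE 0.20, adjusted p = 0.0259) and -0.62 at 48 h (SE 0.18, adjusted p = 0.00757). The call at 12 h was lost without replicate 1 at 12 h (0.40, adjusted p = 0.204) and without replicate 1 (adjusted p = 0.0915) or 2 (adjusted p = 0.0654) at 0 h.

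Against 0 h, fatty acid synthesis enzymes did not move as 1 group. At 12 h 4 of 10 were higher (Scd1, Fasn, Fads1 and Elovl1), 1 was lower (Scd2), and the median log2 change was 0.24, beside 29.9% of all transcripts higher and 28.3% lower. At 24 h 4 were higher and 3 lower (median 0.09), beside 35.0% and 31.8% of all transcripts, and at 36 h 3 and 4 (median -0.05), beside 36.0% and 34.0%. At 48 h 1 was higher and 5 were lower (median -0.23), beside 37.1% and 34.0%. The counts at 24 h and 36 h were near the background. At 12 h 6 of the 10 had their highest mean, beside 17.1% of all transcripts, and at 48 h 8 had their lowest, beside 19.8%. Within culture none of the 10 was called higher. From 12 h to 24 h 2 were lower (median -0.32), beside 4.59% of all transcripts higher and 3.67% lower. From 24 h to 36 h 4 were lower (median -0.17), beside 10.0% and 9.64%.

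**Figure D4:**
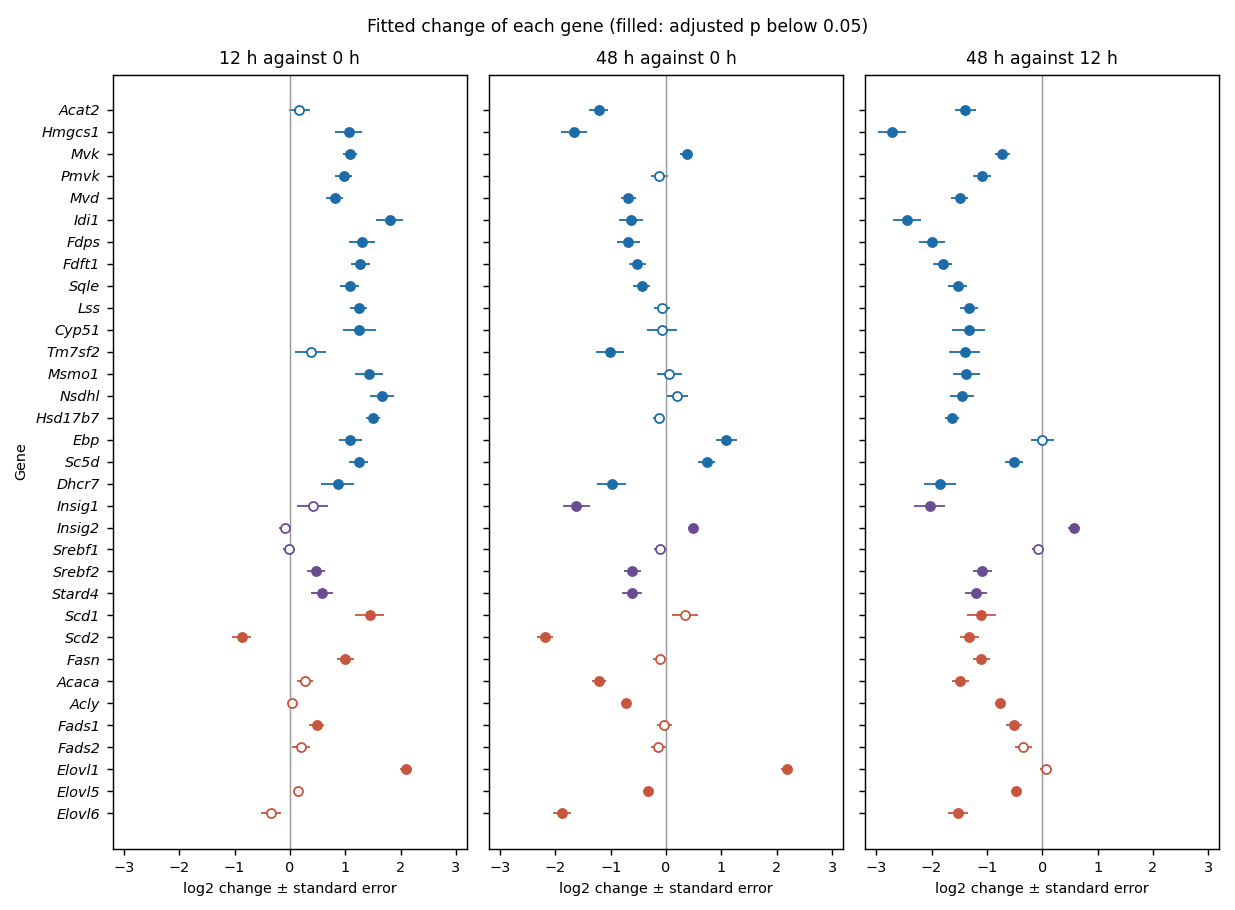
Fitted log2 change of each of the 33 genes at 12 h against 0 h, 48 h against 0 h and 48 h against 12 h, with bars of 1 standard error, filled points for an adjusted p below 0.05 and colours for role. The sterol synthesis enzymes lie between 0.17 and 1.80 at 12 h, and at 48 h 9 of 18 were called lower, while Scd2 reached -2.19 and Elovl1 2.18.

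Of the enzymes that build palmitate, the synthase Fasn (chr11:120805846-120824547, minus strand, 43 exons) followed the sterol enzymes. It scored 5711, 5379 and 6689 at 0 h, 13280 and 10427 at 12 h, 10075, 8082 and 8933 at 24 h, 5602, 5665 and 6623 at 36 h, then 5109, 5109 and 6307 at 48 h. The libraries at 12 h and 24 h were above those at 0 h, and later ones overlapped with them. Fasn rose by a log2 change of 1.0 at 12 h (SE 0.15, adjusted p = 8.17e-05) and stood at -0.11 at 48 h (SE 0.13, adjusted p = 0.479).

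Acaca, the carboxylase that supplies malonyl-CoA (chr11:84129672-84214290, plus strand, in a transcript of 889 bases with 4 exons), was not called at 12 h (log2 change 0.27, adjusted p = 0.129), although its mean was highest there and it was called with the replicate number as a block in the fit (0.34, adjusted p = 0.0322). It scored 3806, 3267 and 4187 at 0 h, 4965 and 4089 at 12 h, 3554, 3385 and 3638 at 24 h, 1717, 1678 and 1925 at 36 h, then 1336, 1632 and 1919 at 48 h. The fall came between 24 h and 36 h, when all libraries dropped below the earlier ones (-0.99, SE 0.13, adjusted p = 0.000651). At 48 h the log2 change from 0 h was -1.21 (SE 0.13, adjusted p = 2.85e-06). Acly, which makes cytosolic acetyl-CoA from citrate for both pathways, was at 0.04 at 12 h and lower at 24 h (-0.29), 36 h (-0.64) and 48 h (-0.72).

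The stearoyl-CoA desaturases Scd1 and Scd2, neighbours on chromosome 19 that place the first double bond in saturated fatty acids, differed in direction against 0 h at 12 h, 24 h and 36 h. Scd1 (chr19:44394455-44407709, minus strand, 6 exons) scored 1085, 909 and 1559 at 0 h, 3909 and 2523 at 12 h, 2803, 1997 and 1721 at 24 h, 1708, 1776 and 2161 at 36 h, then 1437, 1268 and 1721 at 48 h. Scd2 (chr19:44293674-44306864, plus strand, 6 exons) scored 28882, 23247 and 23247 at 0 h, 14408 and 12983 at 12 h, 11655, 7732 and 7424 at 24 h, 8961, 9217 and 9217 at 36 h, then 5346, 5346 and 5721 at 48 h. Scd1 was above 0 h in every library from 12 h to 36 h, and Scd2 below 0 h in every cultured library.

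At 12 h the log2 change was 1.44 for Scd1 (SE 0.26, adjusted p = 0.000366) and -0.87 for Scd2 (SE 0.17, adjusted p = 0.000619). At 48 h it was 0.34 for Scd1 (SE 0.23, adjusted p = 0.197) and -2.19 for Scd2 (SE 0.15, adjusted p = 4.19e-08), a 4.57-fold fall. From 12 h to 48 h both were lower, Scd1 by a log2 change of -1.10 (adjusted p = 0.00457, lost without replicate 1 at 12 h, adjusted p = 0.0749) and Scd2 by -1.32 (adjusted p = 6.5e-05). The log2 ratio of Scd1 to Scd2 within a library was -4.73 to -3.90 at 0 h and -2.39 to -1.73 in all cultured libraries. The tissue, at -4.36, lay within the range of 0 h. The difference between the genes was not tested. Of the 50-base words of these transcripts, 4.66% for Scd1 and 4.01% for Scd2 occurred in other genes. The call for Scd1 at 36 h (0.70, adjusted p = 0.0156) was lost without replicate 2 at 0 h or replicate 3 at 36 h.

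The elongases also differed. Elovl6, which extends palmitate, scored (chr3:129532386-129638495, plus strand, 5 exons) 3729, 3713 and 4102 at 0 h, 3151 and 2884 at 12 h, 2740, 2421 and 2187 at 24 h, 1089, 1185 and 1205 at 36 h, then 808, 1008 and 1408 at 48 h. Each time up to 36 h lay wholly below the one before it. Elovl6 was not called at 12 h (log2 change -0.35, adjusted p = 0.104). It was called there with only the compared time points (adjusted p = 0.0312) and without replicate 1 (0.0407) or 3 (0.0233) at 48 h. It was lower at 24 h (-0.66, adjusted p = 0.00244), 36 h (-1.73) and 48 h (-1.88, SE 0.16, adjusted p = 2.85e-07).

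Elovl1, which extends saturated fatty acids of very long chain (chr4:118428093-118432953, plus strand, 8 exons), had the largest rise of all 33 genes. It scored 343, 365 and 340 at 0 h, 1521 and 1486 at 12 h, 1806, 1608 and 1373 at 24 h, 1831, 1950 and 1877 at 36 h, then 1749, 1537 and 1470 at 48 h. Every cultured library stood far above 0 h and none fell back to it. Its log2 change reached 2.10 at 12 h (SE 0.11, adjusted p = 1.34e-08), 2.43 at 36 h (SE 0.10, adjusted p = 5.1e-10) and 2.18 at 48 h. The enzymes of polyunsaturated fatty acids moved little. Fads1 was higher at 12 h (0.48) and 24 h (0.34), Fads2 at 36 h only (0.42), and Elovl5 was lower at 48 h (-0.32).

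In dental mesenchymal tissue, which had 1 library and no test, none of the 33 genes lay more than 2-fold from the 0 h mean, beside 2.56% of all transcripts higher by that measure and 1.22% lower. The tissue value fell within the range of the 0 h libraries for 12 of 33, or 36.4%, beside 38.3% of all. For fatty acid enzymes it was within the range for 1, below it for 7 and above it for 2, where of all 12079 transcripts 3865 were below and 3587 above. The largest differences were those of Idi1 (4044, log2 difference 0.87) and Insig1 (10049, 0.76). The mean level of the sterol enzymes in tissue was 0.08, within the 0 h libraries and below those at 12 h and 24 h.

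Genes around these pathways were counted in lists, to be read beside all transcripts, of which 29.9% were higher and 28.3% lower at 12 h, and 37.1% and 34.0% at 48 h. The 12 further SREBP targets with a row were higher for 7 and lower for 0 at 12 h (limma, median log2 change 0.61), and higher for 6 and lower for 3 at 48 h (0.38). Me1, the malic enzyme that supplies NADPH, scored 131, 161 and 234 at 0 h, 3431 and 2782 at 12 h, then 1249, 2448 and 2237 at 48 h. Its log2 change was 4.17 at 12 h (SE 0.28, adjusted p = 1.14e-07) and 3.47 at 48 h. Acsl3, which activates fatty acids, was at 0.20 at 12 h and fell by 1.35 on the log2 scale at 48 h (adjusted p = 9.14e-07). Of 10 genes of SREBP processing 3 were higher and 3 lower at 12 h (median 0.09), then 3 and 4 at 48 h (-0.19), close to these shares. Mbtps1, the protease that makes the first cut in SREBP, scored 7058, 6934 and 7501 at 0 h and 1776, 2957 and 2882 at 48 h (-1.53, adjusted p = 1.28e-06). Sar1b, of the vesicle coat that carries Scap, rose by 1.28 at 48 h (adjusted p = 2.96e-07).

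Cholesterol export and LXR genes were called lower more often than all transcripts, of which 28.3% were lower at 12 h and 34.0% at 48 h, but they were few. Of 7 with a row 1 was higher and 4 lower at 12 h (median -1.13), then 1 and 5 at 48 h (-1.54). The exporter Abca1 scored 2188, 2430 and 2585 at 0 h, 361 and 251 at 12 h, then 372, 342 and 267 at 48 h. Its log2 change was -2.99 at 12 h (SE 0.24, adjusted p = 5.6e-07) and -2.88 at 48 h. Abcg1, a second exporter, scored 265, 266 and 171 at 0 h and 6 and 9 at 12 h (-4.78, adjusted p = 2.44e-06), and was at -3.08 at 48 h. All libraries in culture lay below 0 h for both. Macrophages and endothelium also express these exporters, and the endothelial marker sum was lower at the same times. Of 4 macrophage markers with a row, 3 were lower and 1, Lyz2, was higher at 12 h (median log2 change -0.49), while their summed score was 859 to 1170 at 0 h and 920 to 1079 at 12 h. At 48 h 3 of the 4 were lower and none higher (median -1.59), and the sum was 415 to 733. Of 10 genes of uptake and lysosomal release 2 were higher and 5 lower at 12 h (median -0.17), then 2 and 3 at 48 h (-0.11). Vldlr, a lipoprotein receptor, was at -2.01 at 12 h, -0.13 at 36 h (adjusted p = 0.736) and -1.16 at 48 h, and the lipase Lpl at -0.78 at 12 h and -1.10 at 48 h.

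Of all transcripts 29.9% were higher and 28.3% lower at 12 h, and 37.1% and 34.0% at 48 h. Several counts of the next lists lie near these shares. Of 16 genes of fatty acid oxidation 1 was higher and 6 lower at 12 h (median -0.14), then 7 and 1 at 48 h (0.30). Between 24 h and 36 h, when 9 sterol enzymes were lower, 8 of these 16 were higher and none lower (0.46), beside 10.0% of all transcripts higher and 9.64% lower. Cpt1c, a carnitine palmitoyltransferase homologue, scored 644, 667 and 607 at 0 h, 382 and 474 at 12 h, then 2204, 2027 and 1869 at 48 h (1.67, adjusted p = 9.27e-09). Ppard, a nuclear receptor of fatty acids, was at 1.41 at 48 h. Of 12 genes of fatty acid activation and glycerolipid synthesis 6 were higher and 4 lower at 12 h (0.19), then 8 and 4 at 48 h (0.67), with Agpat2 at 2.09 and Acsl5 at 1.38 at 48 h. Of 8 other elongases and desaturases 5 were higher and none lower at 12 h (0.89), then 6 and 1 at 48 h (1.34), led by Hacd1 (2.53) and Fads3 (2.45). Of 11 genes of the isoprenoid branch, which starts from farnesyl diphosphate, 2 were higher and none lower at 12 h (0.10), then 5 and 2 at 48 h (0.18), with Pdss2 at 1.41 and Pdss1 at 1.28.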

How the data were processed

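RNA-seq was analysed in 14 libraries of mDMCs and 1 of dental mesenchymal tissue. Per the study's methods, the authors trimmed reads for adaptors, mapped them to the mouse transcriptome (mm10, Ensembl) with bowtie, and estimated expression with RSEM (version 1.1.21 in the submitters' processing notes, where the methods name a different version). The deposited values are scores, whole numbers labelled as cpm whose library totals of 21357605 to 21365980 exceed that unit. All libraries share 1 median and 1 largest value, as after normalization by rank, a step not named in the sources used here. Depth is therefore unknown, intervals for counting error were not computed, and shifts in total RNA are not visible. A count model could not be used.

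Identifiers matched a gene of GRCm38 for 11973 of 12089 transcripts. Scores were analysed as log2(score + 1) in limma 3.58.1 (R 4.3.3, eBayes with trend), with 1 mean per time point, without the tissue, over the 12079 transcripts that reached 1 ppm of a library's summed score in 2 or more libraries. Fold changes are on this scale and understate those of low genes. In simulated data for 48 h against 0 h, 200 of 12089 genes were changed, with noise drawn apart for each gene. There 81 of 100 2-fold and 100 of 100 4-fold changes were recovered, and 9 unchanged genes were called. Far more transcripts were called in the real comparison, and real libraries shift genes together, so these rates need not hold for it. Sequence shared with other genes was counted as 50-base words of the GRCm38 transcripts.

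The genes and lists were chosen with earlier results of these data known. Values in every library were given for the genes of sterol sensing and transport and for the called enzymes with the largest log2 change against 0 h, 7 of sterol and 6 of fatty acid synthesis. From each list the 2 called genes with the largest change at 48 h were named. Of the promoters, that of Hmgcs1 alone met the planned rule, and the others were added. Alternatives were a pseudocount of 0.1, no filter, 1 ppm in all 14 libraries, libraries shifted to a common median, only the compared time points, a replicate block, a rule after the study's thresholds (p below 0.05 and more than 2-fold), and each library left out. The study does not say whether its p was adjusted, and the unadjusted p of limma was used here. Pandas 2.3.3, numpy 2.4.6 and matplotlib 3.10.9 were used with Python 3.11.15.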

Additional observations from a re-analysis of the deposited data

How the results depend on the processing

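Single-gene alternatives were run for the 18 genes given in every library, and none of their called changes reversed. With only the genes of more than 2-fold change and unadjusted p below 0.05 counted, sterol synthesis enzymes higher than at 0 h numbered 7 (24 h), 3 (36 h) and 1 (48 h), and lower ones were 0 at 36 h and 3 at 48 h, 1 between 24 h and 36 h and 1 between 36 h and 48 h. By the same rule fatty acid enzymes higher than at 0 h numbered 2 (12 h), 1 (24 h) and 1 (36 h), and lower ones were 0, 1 and 3 at 12 h, 24 h and 48 h, with 0 from 12 h to 24 h, then 1 from 24 h to 36 h, and 5 at 48 h against 12 h. The share of all transcripts under this rule was not computed. These counts therefore show only how the number of calls depends on the rule, and cannot be set beside a background. With only the compared time points, lower fatty acid enzymes were 2 at 12 h, 0 between 12 h and 24 h and 1 between 36 h and 48 h. In that fit the calls of Idi1 at 48 h (adjusted p = 0.0533), Srebf2 (0.123) and Stard4 (0.129) at 12 h and Scd2 between 12 h and 24 h (0.17) were lost. With libraries shifted to a common median, Srebf2 at 12 h (0.0506) and Hsd17b7 at 36 h (0.0562) were lost.

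Replicate numbers were not taken to pair the libraries, since not every same-numbered pair correlated above 0.1. Deviations of same-numbered libraries from their group means correlated at a median r of 0.0671 (26 pairs, -0.25 to 0.318), and those of others at -0.0376 (52 pairs), over genes. As a hint of pairing in the data, 11 of 14 libraries were closest to their own number. With the replicate block, 4 sterol enzymes were lower between 12 h and 24 h, and the other counts of both enzyme sets stayed within 1.5 times.

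With each library left out in turn, sterol enzymes lower were 0 to 3 between 12 h and 24 h (0 without either 12 h library or replicate 2 or 3 at 24 h), 4 to 11 between 24 h and 36 h and 0 to 2 between 36 h and 48 h (2 without replicate 1 at 24 h), with medians of -0.82 to -0.50 in the last and -1.61 to -1.34 from 12 h to 48 h. Fatty acid enzymes lower were 1 to 2 at 12 h, 0 to 2 between 12 h and 24 h (0 without the same 4 libraries) and 0 to 2 between 36 h and 48 h (2 without replicate 1 at 24 h), and higher ones were 1 to 4 at 36 h (1 without replicate 2 at 0 h), 1 to 2 at 48 h (2 without replicate 3 at 0 h) and 0 to 2 between 24 h and 36 h (2 without replicate 1 at 24 h). Their medians were -0.04 to 0.18 at 24 h (negative without replicate 1 at 24 h), -0.27 to -0.04 between 24 h and 36 h and -1.04 to -0.76 from 12 h to 48 h. Of 144 single-gene values, 26 changed their side of the threshold under at least 1 alternative, in 45 of 2016 refits without a library and 14 of 864 others. The causes were not tested. Groups of 2 or 3 libraries, and scores of unknown depth, limit what the smaller changes show.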
